A study of Mus musculus with 16 samples.

Results

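Kinesins are motor proteins that walk along microtubules, and 40 genes of this superfamily were found among the 24421 gene symbols of the count table. The members are every symbol made of Kif, a number and at most 1 of the letters a, b and c, or of Kifc and a number, and no measured value entered the choice. They were sorted by known role into 13 mitotic motors, 12 axonal transport motors, 6 other traffic motors, 6 cilium and Hedgehog motors, and 3 microtubule regulators and atypical kinesins. The tissue was lumbar dorsal root ganglia (DRG), which house the cell bodies of sensory neurons, taken from C57BL/6 mouse embryos at embryonic day 13.5. Messenger RNA of 16 samples was sequenced, 4 in each of 4 groups. KO_alpha3 lacks importin α3 (gene Kpna4), an adaptor that binds the nuclear localization signal of a cargo, and WT_alpha3 is the wild type labelled with that line. KO_beta lacks the 3′ untranslated region of Kpnb1, the importin β1 gene, whose protein carries the adaptor and its cargo through the nuclear pore, and WT_beta is the wild type labelled with that second line. Sex, litter and pooling of embryos are not in the labels, and the series' design text gives a gender bias as the reason why all 8 wild types served both knockouts. Libraries are named here by their group and the number in their title.

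A kinesin couples the hydrolysis of ATP to steps along a microtubule. In a dividing cell, mitotic kinesins slide spindle microtubules apart, move chromosomes and help to cut the daughter cells apart. In a postmitotic neuron, other kinesins carry synaptic vesicle precursors, mitochondria, receptors and cytoskeletal parts from the cell body into the axon. Embryonic dorsal root ganglia at this age hold both kinds of cell, since sensory neurons and glia still arise from dividing progenitors. In bulk tissue, fewer cells of a type and less RNA per cell cannot be told apart.

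Library maturity was read from red blood cells carried in the tissue. Primitive red cells switch from the embryonic globin Hbb-bh1 to Hbb-y as they mature, so the globin index was taken as the log2 ratio of Hbb-y to Hbb-bh1, and a higher index marks a later stage of these cells. The index is a property of the blood in a library, and whether it also ranks the age of the ganglion cells was not tested. It stood at 5.10, 6.81, 6.03 and 3.71 in KO_alpha3 42, 50, 75 and 81. In WT_alpha3 45, 54, 55 and 79 it was 4.79, 6.93, 6.71 and 4.10. In WT_beta 399, 401, 410 and 415 it was 5.17, 6.04, 6.89 and 6.63, and in KO_beta 398, 402, 406 and 411 it was 6.06, 6.35, 6.45 and 7.002. All 4 groups overlapped, the line of importin α3 held the widest spread, and KO_beta held no library under 6.06.

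Library totals ran from 19682595 to 26873361 counts. Kpna4 stood at 0.618 to 1.16 CPM, which are counts per sequencing depth after TMM scaling in edgeR, in KO_alpha3 and at 68.2 to 82.8 CPM elsewhere, which fits the labels. Sensory neuron markers were high in every library, with Tubb3 at 1815 to 2895 CPM and Prph at 695 to 2734 CPM. Hoxa10, a gene of the caudal body axis, lay at 0.900, 4.32 and 1.93 CPM in KO_alpha3 81, WT_alpha3 79 and WT_beta 399 and at 22.7 CPM or more in the others, so these 3 libraries go against the lumbar label. WT_alpha3 45 and 79 and WT_beta 399 and 401 were highest in markers of other tissues in an earlier analysis of these data. Results that turn on either set of libraries are given with and without them. In the summed markers used here, WT_beta 401 was highest in spinal cord and muscle, WT_alpha3 45 in sympathetic and WT_beta 399 in epidermis markers. Not every list ranked these 4 first. WT_beta 399 stood at 13.0 CPM in spinal cord markers, below WT_beta 415 at 29.5 CPM. WT_alpha3 79 stood at 204 CPM in muscle markers, below WT_beta 410 at 239 CPM. Nothing in the labels ties each library to an embryo of its own, and the p-values therefore reflect library-to-library spread, which may be technical.

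The promoters of the mitotic and axonal motors differed in how many held a cell cycle motif, given here as a description. The cell cycle genes homology region, CHR, is a short element found in promoters of many genes that are switched on late in the cell cycle. Its letters TTTGAA were searched on both strands from 250 bases before to 50 after the start site in RefSeq promoters (GRCm38.p6), where 32 of the 40 members had a window. The motif was present in 10 of 12 mitotic motors (83.3%) and in 1 of 8 axonal transport motors (12.5%), against 20.2% of 27025 genes. The letters CCAAT on either strand stood in 8 of 12 mitotic motors (66.7%), 3 of 8 axonal motors (37.5%) and 41.1% of all genes. The 12 mitotic motors with a window are not the 12 whose levels were tested below. They include Kif2b, which holds CCAAT but had only 2 counts in all libraries together and was not tested. The 2 motifs were searched separately, and a base could count for both. Both were present in 7 of 12 mitotic motors (58.3%), in 0 of 8 axonal motors and in 7.97% of all genes. A CHR within 25 bases of the start was found in 8 of 12 mitotic motors (66.7%) and 2.88% of all genes. That distance was chosen after the positions were seen, so the share in the motors is partly set by the choice. Of 21 mitotic partners, genes that work with these motors in division, 17 had a window. It held a CHR within that distance in 5 (29.4%), a CHR anywhere in 12 (70.6%) and both motifs in 9 (52.9%). The stretches below show a CHR within 25 bases of the start in 5 mitotic motors and in Kif26b, which rose with the index. Each is read on the gene's own strand, 5′ to 3′, with the motif in capitals, so TTCAAA is the motif on the opposite strand.
Kif11: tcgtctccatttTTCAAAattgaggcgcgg
Kif15: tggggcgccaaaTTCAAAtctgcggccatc
Kif22: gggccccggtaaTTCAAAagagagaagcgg
Kif18b: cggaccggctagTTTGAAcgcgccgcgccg
Kif23: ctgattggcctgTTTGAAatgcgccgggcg
Kif26b: tgggagaatttcTTTGAActcagttagcga
Kif11 is from chr19:37376351-37376380 (plus strand) and Kif15 from chr9:122951050-122951079 (plus strand), each with the first base of the motif at -19 from the start site. The Kif22 stretch is chr7:127042420-127042449 (minus strand, motif at -17) and the Kif18b stretch chr11:102925104-102925133 (minus strand, motif at 4). Kif23 is from chr9:61946780-61946809 (minus strand, motif at 3) and Kif26b from chr1:178529104-178529133 (plus strand, motif at -9). A match is a run of letters and not a measured binding site.

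The axonal motors were the most abundant kinesins. Divided by the merged exon length of GENCODE M21, Kif5a reached 142.7 CPM per kb over the 16 libraries, Kif1a 96.4, Kif5c 94.6, Kif3a 58.1 and Kif1b 51.3. Kif5a and Kif5c are heavy chains of conventional kinesin, Kif1a and Kif1b carry synaptic vesicle precursors and mitochondria, and Kif3a is a subunit of the heterotrimeric kinesin-II. The highest mitotic motor was Kif20a at 7.27 CPM per kb, rank 17 of the 40, followed by Kif11 at 5.99, and Kif14 stood at 1.02. Kif17, a dendritic and ciliary motor placed among the axonal motors, stood at only 0.456 CPM per kb. Kif2b had 2 counts in all libraries together and Kif12 had 80, and these 2 members did not pass the filter on low counts, which left 38 tested.

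**Figure D1:**
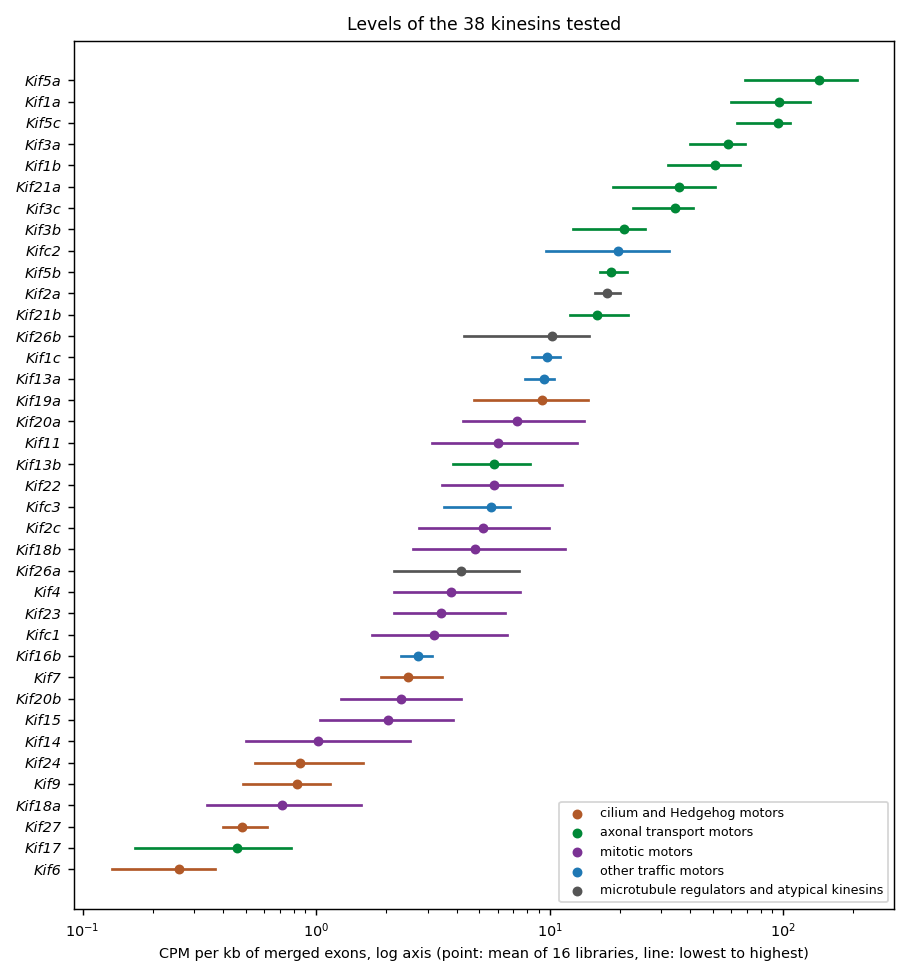
Level of the 38 tested kinesins in CPM per kb of merged exons on a log axis, where points are means of the 16 libraries, lines run from the lowest to the highest library and colours give the role. Kif5a leads at a mean of 142.7 CPM per kb, and the highest mitotic motor, Kif20a, has a mean of 7.27.

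The main comparison asked which kinesins differed along the globin index. Every tested mitotic motor fell with the index, 12 of 12, with a median slope of -0.52 and a range from -0.63 to -0.42 (log2 change in level per unit of the index, where 1 unit is 1 doubling of the Hbb-y to Hbb-bh1 ratio). Of the 12 axonal transport motors, 9 rose and 0 fell, with a median slope of 0.21 and a range from -0.09 to 0.43. Over all kinesins 16 rose and 13 fell of 38 tested. The test was edgeR's quasi-likelihood test with the 4 groups as terms and Benjamini-Hochberg adjustment over 15641 genes. The index moved with much of the transcriptome: 46.7% of all tested genes passed, 26.1% higher and 20.5% lower, and the median slope of all genes was 0.00498. A member's call alone is therefore common, and the list counts are to be read against these shares.

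**Figure D2:**
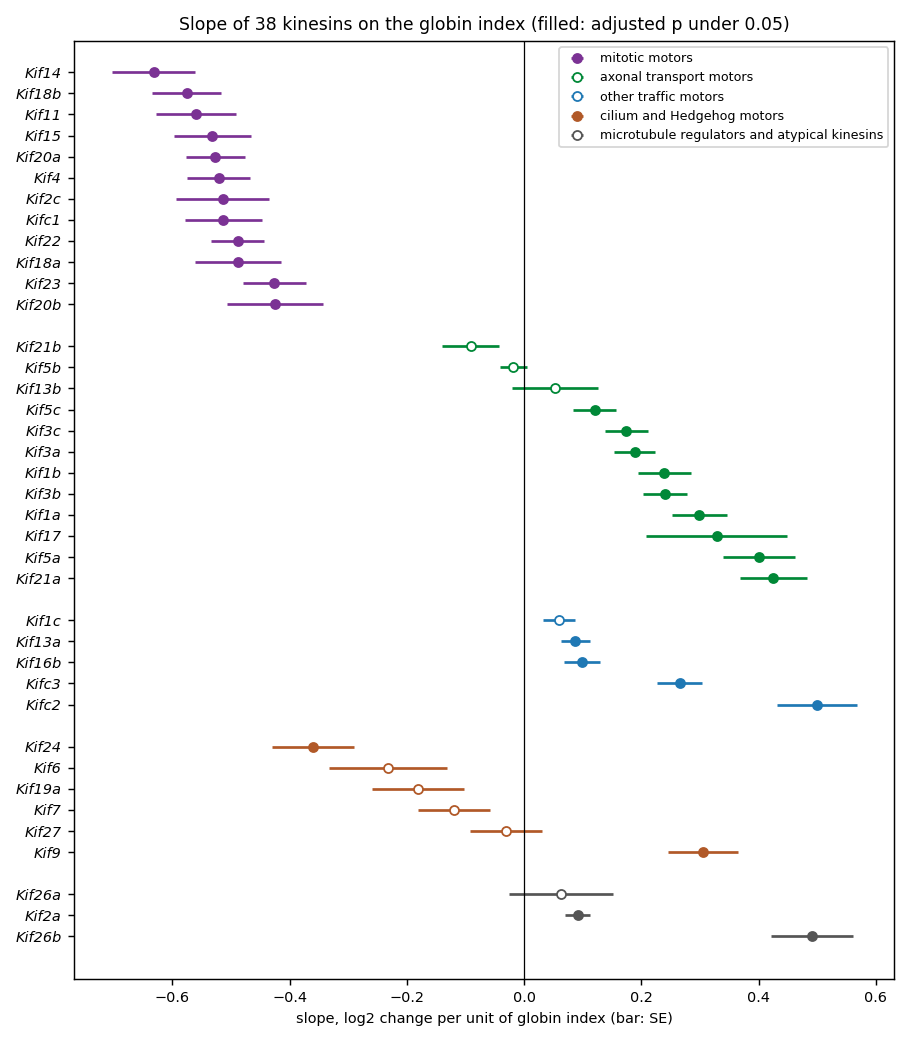
Slope of each tested kinesin on the globin index (log2 change per unit, bars give the standard error), grouped by role, with filled points past the adjusted threshold. All 12 mitotic motors lie between -0.63 and -0.42, and 9 of the 12 axonal motors are filled and above 0.

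Kif22, a chromosome-arm motor that pushes chromosomes towards the spindle equator, had the lowest p of the family. Its level was 38.4, 18.2, 24.5 and 42.3 CPM in KO_alpha3 42, 50, 75 and 81, and 42.9, 17.01, 17.7 and 55.2 CPM in WT_alpha3 45, 54, 55 and 79. It was 35.1, 31.5, 23.5 and 22.6 CPM in WT_beta 399, 401, 410 and 415, and 23.3, 22.4, 21.3 and 17.4 CPM in KO_beta 398, 402, 406 and 411. The highest values were those of the 4 libraries lowest in the index within the line of importin α3, and the groups overlapped. Its slope was -0.49 ± 0.04 (SE, 16 libraries, edgeR adjusted p = 1.11e-05).

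Kif14, which works with citron kinase and PRC1 in cytokinesis, fell most steeply per unit of the index. It lay at 15.4, 6.56, 8.34 and 15.3 CPM in KO_alpha3 42, 50, 75 and 81, and at 15.1, 5.16, 5.46 and 26.04 CPM in WT_alpha3 45, 54, 55 and 79. In WT_beta 399, 401, 410 and 415 it lay at 16.4, 10.5, 7.73 and 6.76 CPM, and in KO_beta 398, 402, 406 and 411 at 8.41, 7.04, 8.33 and 6.30 CPM. The library WT_alpha3 79 stood 5.04-fold above the lowest library. The slope of Kif14 was -0.63 ± 0.07 (SE, edgeR adjusted p = 2.77e-05).

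Kif20a, the motor that brings the chromosomal passenger complex to the central spindle, was also highest in WT_alpha3 79. It lay at 43.6, 18.5, 27.4 and 51.5 CPM in KO_alpha3 42, 50, 75 and 81, and at 50.8, 18.9, 18.8 and 60.8 CPM in WT_alpha3 45, 54, 55 and 79. It lay at 39.2, 34.3, 25.5 and 21.4 CPM in WT_beta 399, 401, 410 and 415, and at 22.9, 25.2, 25.6 and 20.5 CPM in KO_beta 398, 402, 406 and 411. Both lines held their highest value in a library of low index. Its slope was -0.53 ± 0.05 (SE, edgeR adjusted p = 1.31e-05), although 29.3% of its exon bases overlap Cdc23 on the opposite strand, and the strand setting of the counting is not given in the sources used here.

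Kif18b, which shortens astral microtubules, ranged from 9.33 CPM in KO_beta 411 to 41.4 CPM in WT_alpha3 79. Kif4, a chromosome-bound motor encoded on the X chromosome, ranged from 11.9 CPM in KO_alpha3 50 to 41.2 CPM in WT_alpha3 79. Their slopes were -0.58 ± 0.06 (SE, edgeR adjusted p = 1.64e-05) and -0.52 ± 0.05 (SE, edgeR adjusted p = 1.7e-05). For Kif4, 15.1% of the exon bases overlap Pdzd11 on the opposite strand, and an effect of sex on this gene was not tested. The other 7 mitotic motors fell too: Kif11 and Kif15, which slide spindle microtubules apart, Kif2c and Kif18a, which act on microtubule ends at kinetochores, Kif23, the motor subunit of centralspindlin, Kif20b and Kifc1. Their slopes ran from -0.56 (Kif11) to -0.42 (Kif20b). Kifc1, a minus-end motor that clusters spindle poles, has the near-identical copy Kifc5b, so its counts are uncertain.

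The messenger RNAs of proteins that work with these motors in division moved with those of the motors. All 21 mitotic partners fell, with a median slope of -0.54 and a range from -0.67 to -0.30. The 3 with the lowest p were Cdca8 and Incenp, subunits of the chromosomal passenger complex, at -0.52 ± 0.04 and -0.46 ± 0.04, and Tpx2, a spindle assembly factor, at -0.58 ± 0.05 (SE, each edgeR adjusted p = 1.11e-05). The summed level of the 13 mitotic motors ranged from 147 to 525 CPM across libraries. Divided by the summed level of the 21 partners it stayed between 0.331 and 0.385, a 1.16-fold range.

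Among the axonal motors, Kif21a and Kif5a had the lowest p. Kif21a, a slow motor that limits microtubule growth in axons, stood at 136, 309.9, 225 and 143 CPM in KO_alpha3 42, 50, 75 and 81, and at 148, 315, 330.3 and 121 CPM in WT_alpha3 45, 54, 55 and 79. It stood at 217, 187, 248 and 285 CPM in WT_beta 399, 401, 410 and 415, and at 254, 239, 237 and 316 CPM in KO_beta 398, 402, 406 and 411. The low libraries were the ones in which mitotic motors were high, with WT_alpha3 79 the lowest. Its slope was 0.43 ± 0.06 (SE, edgeR adjusted p = 7.93e-05).

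Kif5a is a neuron-specific heavy chain of conventional kinesin that carries neurofilaments and other axonal cargo. It lay at 643, 1335, 936 and 680 CPM in KO_alpha3 42, 50, 75 and 81, and at 684, 1307, 1450 and 480 CPM in WT_alpha3 45, 54, 55 and 79. In WT_beta 399, 401, 410 and 415 it lay at 922, 746, 1083 and 1092 CPM, and in KO_beta 398, 402, 406 and 411 at 1159, 1053, 996 and 1398 CPM. The groups overlapped, and the highest library stood 3.02-fold above the lowest. Its slope was 0.40 ± 0.06 (SE, edgeR adjusted p = 0.000178).

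**Figure D3:**
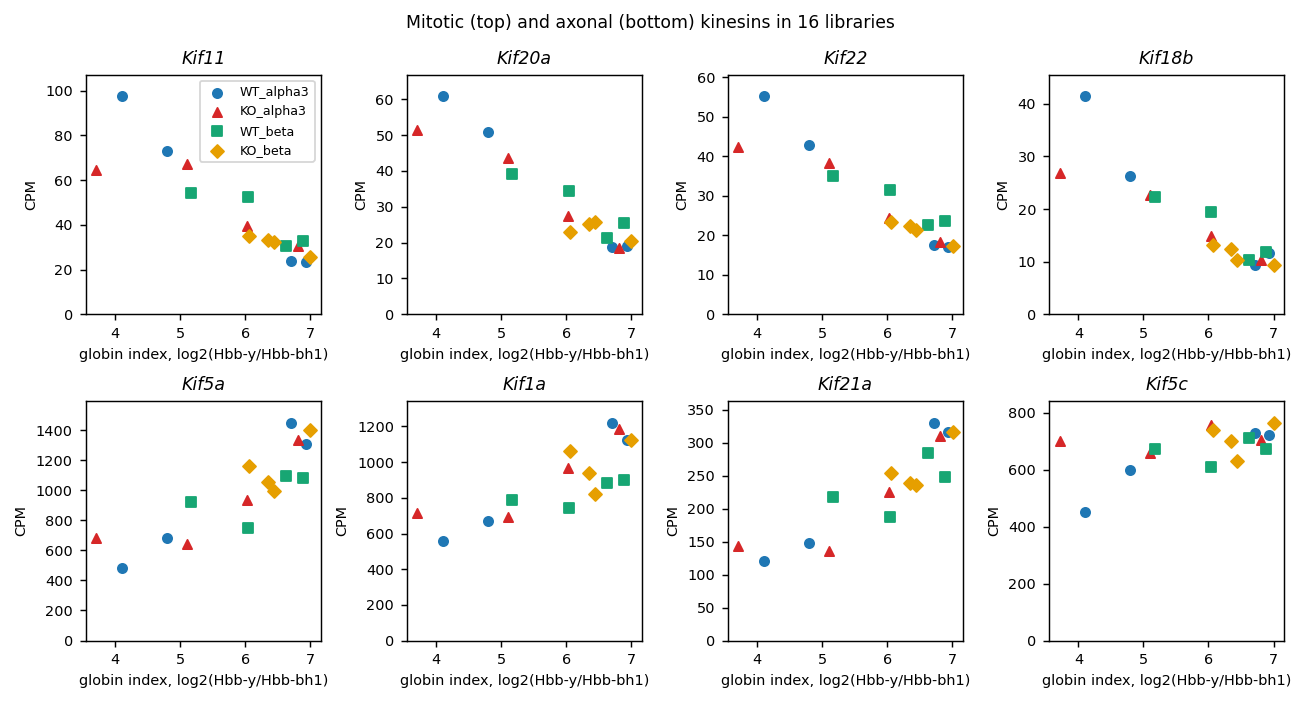
Level in CPM of 4 mitotic motors (top) and 4 axonal motors (bottom) against the globin index, with 1 point per library and colours and shapes for the 4 groups. Kif22 is highest at 55.2 CPM in WT_alpha3 79 and lowest at 17.01 CPM in WT_alpha3 54, while Kif5a is at 480 and 1307 CPM in the same libraries.

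The other axonal motors that rose were Kif1a (0.30 ± 0.05 SE), Kif1b (0.24 ± 0.05 SE), the 3 subunits of kinesin-II motors Kif3a, Kif3b and Kif3c (0.19, 0.24 and 0.17), Kif5c (0.12 ± 0.04 SE) and Kif17 (0.33 ± 0.12 SE). Their edgeR adjusted p-values ran from 0.000187 for Kif3b to 0.0369 for Kif17, which was measured at only 0.771 to 3.59 CPM. For Kif3c, 35.3% of the exon bases overlap 1110002L01Rik on the opposite strand. The 3 that did not pass were Kif5b at -0.02 ± 0.02 (adjusted p = 0.537), Kif13b at 0.05 ± 0.07 (adjusted p = 0.576) and Kif21b at -0.09 ± 0.05 (adjusted p = 0.139). Kif5b is the conventional kinesin heavy chain found in most cell types, and its 16 libraries lay between 131 and 171 CPM, a 1.30-fold range. The 3 heavy chains of conventional kinesin thus had slopes of 0.40, 0.12 and -0.02 for Kif5a, Kif5c and Kif5b, whose differences from each other were not tested.

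The largest slopes upward belonged to motors outside the axonal list. Kifc2, a minus-end motor of neurons, lay at 39.5, 114, 64.0 and 40.5 CPM in KO_alpha3 42, 50, 75 and 81, and at 51.0, 100.2, 127.6 and 37.8 CPM in WT_alpha3 45, 54, 55 and 79. It lay at 64.5, 57.0, 82.7 and 94.0 CPM in WT_beta 399, 401, 410 and 415, and at 93.2, 79.7, 80.1 and 108 CPM in KO_beta 398, 402, 406 and 411. Its slope of 0.50 ± 0.07 (SE, edgeR adjusted p = 9.12e-05) was the highest of the 38, with the low-index libraries of the importin α3 line at the bottom of the range. Kifc3, a minus-end motor known from epithelial junctions and apical traffic, ran from 18.8 CPM in WT_alpha3 79 to 35.9 CPM in KO_alpha3 50, with a slope of 0.27 ± 0.04 (SE, edgeR adjusted p = 0.00013). Exons of 15 of the 40 members overlap those of another gene, Kifc3 among them, and such counts are uncertain without the strand setting. Of the other traffic motors tested, 4 of 5 rose, the others being the endosomal motor Kif16b (0.10) and the vesicle motor Kif13a (0.09), and Kif1c stood at 0.06 ± 0.03 (adjusted p = 0.0900).

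Kif26b, an atypical kinesin without ATPase activity, showed a slope close to that of Kifc2. It lay at 79.3, 184, 167 and 69.8 CPM in KO_alpha3 42, 50, 75 and 81, and at 99.7, 216, 215 and 63.1 CPM in WT_alpha3 45, 54, 55 and 79. It lay at 151, 140.2, 163 and 168 CPM in WT_beta 399, 401, 410 and 415, and at 189, 165, 137 and 194 CPM in KO_beta 398, 402, 406 and 411. The spread was widest in the importin α3 line, and the slope was 0.49 ± 0.07 (SE, edgeR adjusted p = 0.000113). Kif2a, which trims microtubule ends and restrains collateral branching, rose by a small and precise slope of 0.09 ± 0.02 (SE, adjusted p = 0.0025), although 19.2% of its exon bases overlap Dimt1. Kif26a, known as a restraint on GDNF signalling in enteric neurons, stood at 0.06 ± 0.09 (adjusted p = 0.581).

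Motors of cilia and the Hedgehog pathway did not move as a group. Kif24, which acts at centrioles to hold back ciliogenesis, fell (slope -0.36 ± 0.07 SE, edgeR adjusted p = 0.000892), and Kif9, a motor of motile cilia, rose (0.30 ± 0.06 SE, adjusted p = 0.000971). Kif24 ran from 4.41 to 12.8 CPM and Kif9 from 2.09 to 4.90 CPM. The remaining 4 did not pass: Kif7, the Hedgehog regulator at the cilium tip, at -0.12, Kif27 at -0.03, Kif6 at -0.23 and Kif19a at -0.18.

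The light chains and adaptors that tie motors to cargo rose in 12 of 16 cases, with 1 fall and a median slope of 0.11. Fez1, a kinesin-1 adaptor, rose by 0.29 ± 0.04, Klc2, a kinesin light chain, by 0.28 ± 0.04 and Arl8a, a small GTPase that links lysosomes to kinesins, by 0.26 ± 0.04 (SE, edgeR adjusted p = 8.15e-05, 0.000132 and 0.000227). The 1 that fell was Klc3 (slope -0.31, adjusted p = 0.0239), named after its value was seen.

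The summed levels put the families side by side. The 12 axonal motors together ranged from 3015 CPM in WT_alpha3 79 to 5967 CPM in WT_alpha3 55, the libraries that were highest and lowest in the mitotic sum. Their ratio, axonal over mitotic, ran from 5.74 to 40.5, a 7.06-fold range over libraries that share 1 labelled embryonic day. WT_alpha3 spanned this whole range, KO_alpha3 lay from 10.4 to 34.4, WT_beta from 13.3 to 25.5 and KO_beta from 22.6 to 35.6. The groups overlapped on this ratio.

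**Figure D4:**
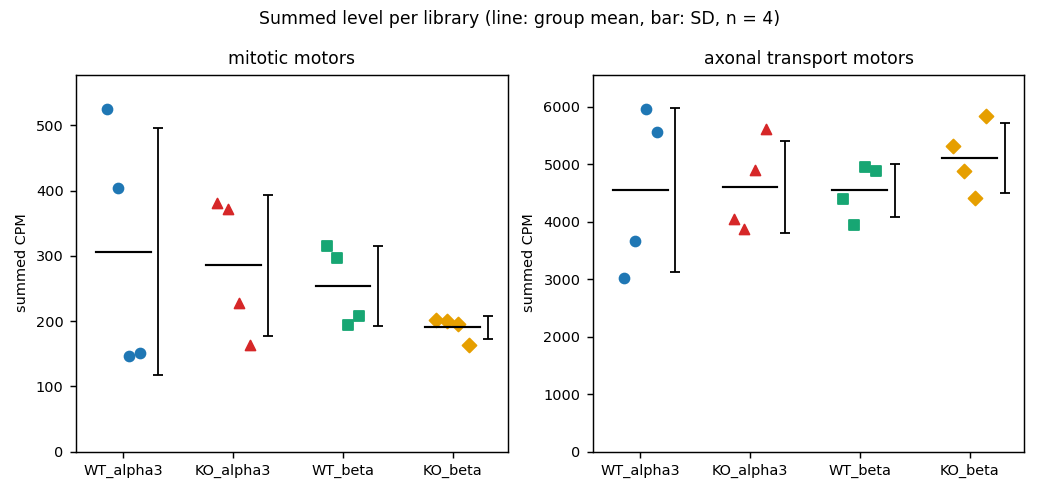
Summed level in CPM of the mitotic and of the axonal motors by group, with 1 point per library, a line at the group mean and a bar for the SD (n = 4). The mitotic sum reaches 525 CPM in WT_alpha3 79, where the axonal sum is lowest at 3015 CPM.

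Marker genes of cell types moved beside the motors. Of the 9 sensory neuron markers 3 rose with the index, Avil and Prph among them, 2 fell, Pou4f1 among them, and 4 did not pass. The axonal sum divided by the summed sensory markers, which ran from 4364 to 9044 CPM, stayed between 0.551 and 0.707, a 1.28-fold range. Of the 5 genes listed as neural progenitor markers 4 fell, and Sox2 did not pass (edgeR adjusted p = 0.0789). Their sum ran from 138 to 679 CPM, in which Nhlh1 alone ran from 72.3 to 467 CPM. Of other cell types, 1 of 5 glial, 0 of 6 skeletal muscle and 0 of 4 epidermis markers passed. Spinal cord markers fell in 3 of 6 cases with a summed level of 1.41 to 74.9 CPM, and 1 of 5 sympathetic markers rose. Of the erythroid markers, which include the globins of the index, 4 of 6 tested fell, Hba-a1 was at 0, and the sum ran from 378 to 10143 CPM. The part of these cell types in the slopes was not tested. The highest erythroid sums, 10143 CPM in WT_alpha3 79 and 5152 CPM in WT_alpha3 45, stood in the libraries with the highest mitotic sums, 525 and 404 CPM. The next, 3369 CPM in KO_beta 398, stood beside a mitotic sum of 201 CPM. Then came KO_alpha3 81, WT_beta 399, KO_beta 402 and KO_alpha3 42 with erythroid sums of 2869, 2265, 1813 and 1621 CPM. Their mitotic sums were 381, 316, 200 and 372 CPM.

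The slopes were also taken within each line. In the line of importin α3 alone, 12 of 12 mitotic motors fell and 9 of 12 axonal motors rose, where 19.4% of all genes passed lower and 24.2% higher. In the line of importin β1 alone, where the index spans less, 5 mitotic motors fell (Kif14, Kif18b, Kif11, Kif22 and Kif4) and 0 kinesins rose. The share of all genes called there was 4.03% lower and 0.481% higher. The mitotic median in that line was -0.40, with 0 of 12 above 0, and the axonal median was 0.11, with 11 of 12 above 0. The difference of the slopes, importin β1 line minus importin α3 line, was tested as an interaction. It passed for 0 of 38 kinesins (edgeR, where 0.895% of all genes passed, 0.0895% higher and 0.806% lower). Of the kinesins 7 of 38 lay under an unadjusted p of 0.05, against 2828 of 15641 genes. The 3 of lowest p, named after their values were seen, were Kif19a (0.54 ± 0.16, adjusted p = 0.115), Kif26b (-0.45 ± 0.14, adjusted p = 0.119) and Kif17 (-0.76 ± 0.24, adjusted p = 0.131). DESeq2 called 2 of them, Kif19a at 0.54 (adjusted p = 0.0384) and Kif26b at -0.46 (adjusted p = 0.0417), where it called 0.94% of all genes higher and 2.81% lower. Without KO_alpha3 81 alone, 6 kinesins passed in edgeR: the difference was positive for Kif15, Kif20b, Kif2c and Kif7 and negative for Kif26b and Kifc3, with adjusted p-values from 0.0210 to 0.0476, in a setting in which 1236 genes passed (1.87% of all genes higher, 5.97% lower). In the 8 wild types alone, 12 mitotic motors fell and 8 axonal motors rose, where 15.1% of all genes passed lower and 18.1% higher.

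The slopes were then taken without the libraries that stand apart. Without the 4 libraries highest in other tissues, 11 of 12 mitotic motors fell (not Kif20b) and 4 axonal motors rose (Kif1a, Kif3b, Kif5a and Kif21a), while Kif21b fell. There 14.3% of all genes passed higher and 12.9% lower, against 26.1% and 20.5% in all 16 libraries. These 4 are also the wild types lowest in the index. Without the 3 libraries lowest in Hoxa10, 12 mitotic motors fell, with a median of -0.66, and 8 axonal motors rose (19.6% of all genes lower, 22.7% higher). Without KO_alpha3 81 and WT_alpha3 79, the libraries farthest from the median index, 12 mitotic motors fell and 7 axonal motors rose (17.5% of all genes lower, 16.1% higher).

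The loss of importin α3 was compared with all 8 wild types. No kinesin passed, 0 of 38 (edgeR quasi-likelihood test; 0.00639% of all genes passed, which is 1 gene, and 1696 of all genes lay under an unadjusted p of 0.05). Of the kinesins 3 lay under that unadjusted p. DESeq2 called 1 kinesin, where it called 0.166% of all genes higher and 0.652% lower. The mitotic median was -0.02 with 5 of 12 above 0, and the axonal median was 0.02 with 8 of 12 above 0. The summed mitotic level was 286 ± 108 CPM in KO_alpha3 (SD, n = 4) and 280 ± 133 CPM in the wild types (SD, n = 8), and the axonal sums were 4605 ± 805 and 4550 ± 986 CPM.

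Kif26a and Kif19a had the lowest p in this comparison. Kif26a lay at 16.8, 24.9, 21.1 and 14.9 CPM in KO_alpha3 42, 50, 75 and 81. It lay between 29.1 and 51.2 CPM in WT_alpha3 and between 21.04 (WT_beta 399) and 42.2 CPM in WT_beta. The groups overlapped through WT_beta 399 alone, 1 of the libraries low in Hoxa10. KO_alpha3 81, the lowest of the 16 libraries in Kif26a, and WT_alpha3 79, at 36.9 CPM, are low in Hoxa10 too. The log2 fold change was -0.83 ± 0.20 (SE) with an edgeR adjusted p of 0.330, while DESeq2 gave -0.82 with an adjusted p of 0.0212, and the adjusted p ranged from 0.0212 to 0.955 over the alternatives. Markers of other tissues were at lower levels in KO_alpha3 as well, although none passed: all 6 spinal cord markers had negative values (median -3.30), as did all 6 skeletal muscle markers (-1.65), all 4 epidermis markers (-1.88) and all 5 sympathetic markers (-3.05). Their summed levels in KO_alpha3 and the 8 wild types were 1.41 to 6.08 and 4.18 to 74.9 CPM for spinal cord, 20.6 to 133 and 51.8 to 683 CPM for muscle, 1.999 to 8.24 and 6.64 to 25.6 CPM for epidermis, and 142 to 343 and 226 to 585 CPM for the sympathetic list. The highest Kif26a libraries, WT_alpha3 45, WT_beta 401 and WT_alpha3 79, are among the 4 highest in other tissues, and without those 4 the fold change was -0.66 ± 0.14 (SE, edgeR adjusted p = 0.187). Kif19a, a motor that sets the length of motile cilia, lay at 56.4, 27.5, 48.0 and 59.5 CPM in KO_alpha3 42, 50, 75 and 81, against 19.4 to 43.0 CPM in WT_alpha3 and 28.0 to 42.1 CPM in WT_beta. Its difference of 0.48 ± 0.20 (SE, adjusted p = 0.410) did not pass.

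The knockout of the importin β1 3′ untranslated region also left 0 of 38 kinesins past the threshold (edgeR; 0% of all genes passed, and 349 lay under an unadjusted p of 0.05). No kinesin lay under that unadjusted p, 0 of 38. DESeq2 called 0 kinesins, where it called 0% of all genes higher and 0.00639% lower. All 12 mitotic motors had a negative value, with a median of -0.56 and a range from -0.74 to -0.40. The axonal median was 0.16 with 10 of 12 above 0. Over all genes 7692 of 15641 lay above 0, with a median of -0.0026. The mitotic partners were negative as well, with 0 of 21 above 0 and a median of -0.53, so the sign was not particular to the motors. The summed mitotic level was 190 ± 17.7 CPM in KO_beta (SD, n = 4), within the wild-type range of 147 to 525 CPM. Kif18b lay at 13.2, 12.4, 10.4 and 9.33 CPM in KO_beta 398, 402, 406 and 411, against 9.45 to 41.4 CPM in the 8 wild types (-0.74 ± 0.38 SE, edgeR adjusted p = 0.932). Kif20b, a motor of the cytokinetic midbody, lay at 13.01, 11.97, 10.2 and 11.9 CPM against 8.85 to 29.2 CPM (-0.56 ± 0.29 SE, edgeR adjusted p = 0.932). The KO_beta libraries lay inside the wild-type range in Kif20b, and in Kif18b KO_beta 411 lay just below it.

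The sign of the mitotic values in both comparisons turned with the libraries used. Both comparisons share their 8 wild types. For importin α3 single libraries were enough: the mitotic median was -0.20 without KO_alpha3 81 and -0.15 without KO_alpha3 42, each with 0 of 12 above 0, 0.18 without KO_alpha3 50, with 11 of 12 above 0, and 0.21 without WT_alpha3 79, with 12 of 12 above 0. For importin β1 the median ran from -0.68 to -0.37 with each library left out, the latter without WT_alpha3 79. The 4 wild types highest in other tissues were also the 4 lowest in the index. They stood at 4.10 to 6.04, against 6.63 to 6.93 in the other wild types. Their mitotic sums were the highest of the wild types, at 297 to 525 CPM against 147 to 208 CPM. Without these 4, the mitotic median became 0.68 in KO_alpha3, with 12 of 12 above 0, and 0.13 in KO_beta, with 11 of 12 above 0. Which of these traits turned the sign was not tested. The axonal medians without these 4 became -0.18 and -0.05. With the globin index as a further term the mitotic medians were -0.21 and -0.17 and the axonal ones 0.11 and 0.08. Against the wild types of their own line they were -0.15 and -0.41 for mitotic motors, and without the 3 libraries low in Hoxa10 they were 0.08 and -0.30.

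**Figure D5:**
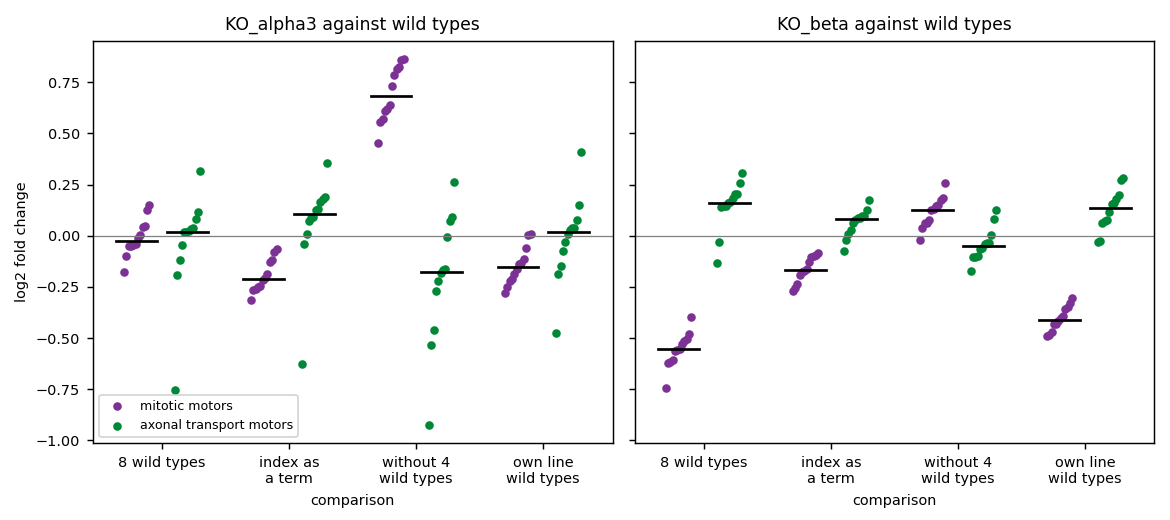
Log2 fold change of the 12 tested mitotic and 12 axonal motors in each knockout, with 1 point per gene and a line at the median, for 4 choices of the comparison. The mitotic median in KO_alpha3 is -0.02 against the 8 wild types and 0.68 without the 4 wild types highest in other tissues, and in KO_beta it is -0.56 and 0.13. These 4 wild types are also the 4 lowest in the index.

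The wild types of both lines were compared last. None of the 38 kinesins passed (edgeR, where 0.0192% of all genes passed, 3 genes, 0.0128% higher and 0.00639% lower). Under an unadjusted p of 0.05 lay 0 kinesins, against 824 of 15641 genes. DESeq2 called 0 kinesins, where it called 0.109% of all genes higher and 0.0959% lower. Kif17 lay at 1.17, 2.53, 2.38 and 1.07 CPM in WT_alpha3 45, 54, 55 and 79 and at 2.90, 2.49, 2.23 and 2.72 CPM in WT_beta 399, 401, 410 and 415, a difference of 0.50 ± 0.37 (SE, adjusted p = 1). Kif21b, a motor that carries receptors in neurons, stood at 174 to 260 CPM and 170 to 204 CPM, a difference of -0.19 ± 0.14 (SE, adjusted p = 1). The 2 sets of wild types overlapped in both genes.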

How the data were processed

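For each of the 16 libraries the authors deposited raw counts of reads by gene symbol, and every test started from them. The submitters' processing notes name mm10 as the build and, without roles, HTSeq 0.6.1p1, TopHat2 2.0.10, DESeq2 1.6.3, cutadapt and bcl2fastq 2.17.1.14. Annotation and strand setting: not given in the sources used here. The deposited normalized table was not used. Library totals set the precision.

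From the counts, R 4.3.3 and edgeR 4.0.16 gave TMM-scaled CPM and quasi-likelihood tests (2-sided, Benjamini-Hochberg adjustment at 0.05) on the 15641 genes that filterByExpr kept (minimum count 10, minimum total 15). The index slope, line difference and slope difference used 4 groups, and each knockout effect used 3, with the 8 wild types as 1 group. The scripts were tested on simulated data. Full statistics were given for up to 5 members per direction with the lowest p of the index slope, the 2 with the lowest p in each other comparison, and 3 genes of each partner list. Members, lists and rules were chosen with earlier results of these data known. Alternatives were DESeq2 1.42.0 (size factors and Wald test), no filter, other sets of libraries and each library left out. The globin index as a term and another index were used too. That other index was the log2 ratio of the adult globins Hbb-bs plus Hbb-bt to Hbb-bh1, so it shares Hbb-bh1 with the globin index. Leaving out the 3 libraries lowest in Hoxa10 was added after seeing the data. Values of a few other genes are not reported here.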

Additional observations from a re-analysis of the deposited data

Results flagged for a closer look

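Within groups of 4 libraries, 3 of 64 tested sets of values held a library far from the other 3, by Dixon's criterion (gap to the nearest library over the whole range, above its 95% critical value), and chance gives about 1 in 20 such sets. Kif21b lay at 264.9 CPM in KO_alpha3 81, against 173 to 185 CPM in the other KO_alpha3 libraries. Kif26a lay at 31.1 CPM in KO_beta 411, against 25.6 to 26.3 CPM. Kif4 lay at 13.3 CPM in KO_beta 411, the library with the highest globin index, against 15.9 to 16.2 CPM.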

How the results depend on the processing

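No paired analysis was possible because no replicate number is shared between groups. Of 270 alternative values for the 10 kinesins with full slope statistics, 264 kept direction and side of the threshold. The other 6 came from the importin β1 line alone: Kif21a, Kifc2, Kif26b, Kifc3, Kif5a and Kif20a did not pass there (edgeR adjusted p = 0.326, 0.257, 0.691, 0.659, 0.417 and 0.0602); that fit holds fewer samples. The slope passed for 4261 genes (8 kinesins higher) without the 4 libraries highest in other tissues and 693 genes (0 kinesins higher, 5 lower) in that line. Leaving out each library gave 5896 to 7798 genes, 12 to 16 kinesins higher and 13 to 16 lower. For importin α3, DESeq2 called 128 genes and 1 kinesin lower, and leaving out each library gave 1 to 124 genes, the highest without KO_alpha3 50. For importin β1, DESeq2 called 1 gene, and Kif18b turned to 0.0615 without the 4 libraries. Between lines, DESeq2 called 32 genes, the index as a term 5, and leaving out each library 2 to 7 (5 without KO_alpha3 50, 7 without KO_alpha3 81). The slope difference gave 238 genes with no filter, 587 with DESeq2 (1 kinesin higher, 1 lower), 0 without the 4 libraries, 1 without the 3 lowest in Hoxa10, and 0 to 1236 with each library left out (0 to 4 kinesins higher, 0 to 2 lower): 1236 without KO_alpha3 81, 641 without WT_alpha3 79, 263 without KO_alpha3 42, and 76 or fewer without KO_alpha3 50 or 75, WT_alpha3 55, WT_beta 399, 410 or 415, or KO_beta 398, 402 or 406. The cause was not tested. Low counts limit Kif17, Kif9 and Hbb-bh1 (49 to 6678 counts).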
